A study of Mus musculus with 4 samples.

Results

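The Gm8300 family is a group of 10 closely related genes that resemble Eif1a and lie on mouse chromosome 12. The members were Gm8300, Gm4027, Gm21319, BB287469, Gm2016, Gm2035, Gm6803, Gm2056, Gm8332 and Gm5662, taken by name out of 24190 listed gene symbols. They were proposed because their levels differed between GFP-positive and GFP-negative cells, so their values in that comparison are a description and carry no test. The cells were E14 (ES-E14TG2a), a male mouse embryonic stem cell (ESC) line, grown in serum-free medium with inhibitors of MEK and GSK3β. Both reporter lines were clonal and carried a stably integrated Zscan4c promoter. In the line called the fusion line here this promoter drove a fusion, GFP-Zscan4c, and in the GFP-only line it drove GFP alone. Fluorescence sorting separated each line into GFP-positive cells, labelled 2C-like after the 2-cell embryo, and GFP-negative cells, labelled pluripotent. Each of these 4 populations gave 1 library of poly-A RNA, so there was no error between replicates of a population, and no test is given. Each line was 1 clone, so the construct and the clone cannot be told apart, and the sort itself was made on a promoter of the 2-cell programme.

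Eif1a and Eif1ax encode the translation initiation factor eIF1A. eIF1A binds the small ribosomal subunit and, together with eIF1, helps it to scan messenger RNA and to choose the start codon. The mouse genome also holds a cluster of Eif1a-like copies on chromosome 12 whose transcripts are known from the 2-cell embryo and from 2C-like ESCs, a small population of cells that transcribes genes of that stage.

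Values are TPM, a share of all transcripts that allows for transcript length. Between 66.6% and 69.1% of the full scale lay in the listed transcripts. GFP-negative cells of the GFP-only line had 48.4% of symbols listed at 0, and the other libraries 11.6% to 19.5%. Because of this, a 0 there cannot be read as absence, and no linear fold is given against it. Log2 ratios with 1 TPM added enter such a 0 as 0 TPM, so their size depends on the 1 TPM added. Zscan4c, Zscan4d and Zscan4f were among 10 markers of 2C-like cells. The summed level of the 10 was 1506 TPM in GFP-positive cells and 6.02 TPM in GFP-negative cells of the fusion line. This sum was 936 TPM in GFP-positive cells and 12.7 TPM in GFP-negative cells of the GFP-only line. The cells were sorted on the Zscan4c promoter, so the sum is no independent check of the sort. The fusion construct also holds Zscan4c sequence, and its part in the sum was not tested. The sum of 6 pluripotency markers lay between 2642 and 3359 TPM in every library. Of these markers Klf4 alone was 2-fold apart between GFP-positive and GFP-negative cells, in opposite directions in the lines. It was at 118 TPM in GFP-positive and 40.1 TPM in GFP-negative cells of the fusion line. In the GFP-only line Klf4 was at 69.5 TPM in GFP-positive and 187 TPM in GFP-negative cells. Of 5 fibroblast or feeder markers, 4 were listed. Their sum was 186 TPM in GFP-positive cells and 8.28 TPM in GFP-negative cells of the fusion line, and 202 TPM in GFP-positive cells and 310 TPM in GFP-negative cells of the GFP-only line. Vim, an intermediate filament gene, made up most of each sum. Col1a1 and Col1a2, the collagen genes that define fibroblasts, were at 0.114 TPM or less in each library. Thy1, a surface protein gene, was at 7.27 TPM in GFP-positive cells of the fusion line and 11.9 TPM in those of the GFP-only line, and was listed at 0 in the GFP-negative cells of both. It was thus higher in GFP-positive cells, as the family was, and the part of this list in the family's values was not tested. Of 5 primitive endoderm markers, 3 were listed, and their sum was 3.07 TPM or less in each library. Of 5 trophectoderm markers, 3 were listed, with a sum of 26.8 TPM in GFP-positive and 34.0 TPM in GFP-negative cells of the fusion line, and 27.5 TPM in GFP-positive and 39.4 TPM in GFP-negative cells of the GFP-only line. Tfap2c made up most of each trophectoderm sum and was lower in GFP-positive cells of both lines. Eomes, also in that list, was at 3.42 TPM in GFP-positive cells of the fusion line and 2.64 TPM in those of the GFP-only line. Gata4, a primitive endoderm marker, was at 2.13 and 1.64 TPM in the same order. Both were listed at 0 in the GFP-negative cells of both lines. Sox17, Sox7 and Elf5 were at 0.947 TPM or less. In bulk RNA such as this, fewer cells of a type and less RNA per cell cannot be told apart.

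The members spanned chr12:87514316-88274500 (GRCm38) and lay on both strands. In the annotation GENCODE M21 each had 1 listed transcript with a coding sequence of 435 bases and the type protein coding. RefSeq called 3 of them pseudogenes, namely Gm2035, Gm2056 and Gm8332. The models were of 2 kinds. Gm8300, Gm4027, Gm21319, BB287469, Gm2016 and Gm5662 had 2 exons, with 491 to 503 bases before the ATG and 840 to 935 after the stop codon. Gm2035, Gm6803, Gm2056 and Gm8332 had 1 exon that held the coding sequence and nothing else.

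The coding sequences differed by 0 to 17 of 435 bases between members, with a median of 10 over 45 pairs. Each member differed from Eif1a by 22 to 28 bases and from Eif1ax by 64 to 71 bases. Gm4027 and BB287469 had the same coding sequence, and their whole models were 99.8% identical. Coding bases 187 to 276, counted from 1 at the A of the ATG, were the stretch of 90 with the most positions that vary among members. On GRCm38 they lie, for example, at chr12:87517083-87517172 on the plus strand in Gm8300 and at chr12:88249825-88249914 on the minus strand in Gm8332. They are shown here because they let a reader see how little separates copies whose levels differed. Capitals mark bases that differ from the commonest base of the 10 members at that position.
Gm8300: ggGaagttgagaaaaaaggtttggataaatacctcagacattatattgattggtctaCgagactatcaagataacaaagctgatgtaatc
Gm4027: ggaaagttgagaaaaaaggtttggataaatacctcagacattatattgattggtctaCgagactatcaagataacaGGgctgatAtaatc
Gm21319: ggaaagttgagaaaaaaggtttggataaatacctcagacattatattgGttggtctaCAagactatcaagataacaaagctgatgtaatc
BB287469: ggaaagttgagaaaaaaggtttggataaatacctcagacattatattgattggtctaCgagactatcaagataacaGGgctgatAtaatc
Gm2016: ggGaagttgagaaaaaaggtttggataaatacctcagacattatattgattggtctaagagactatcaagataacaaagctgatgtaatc
Gm2035: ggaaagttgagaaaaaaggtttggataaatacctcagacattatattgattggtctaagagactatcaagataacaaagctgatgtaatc
Gm6803: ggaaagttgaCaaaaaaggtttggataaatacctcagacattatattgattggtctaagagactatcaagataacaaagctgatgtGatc
Gm2056: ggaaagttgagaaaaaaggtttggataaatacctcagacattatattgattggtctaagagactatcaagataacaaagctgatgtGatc
Gm8332: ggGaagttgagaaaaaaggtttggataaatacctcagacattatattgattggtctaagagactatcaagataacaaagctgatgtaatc
Gm5662: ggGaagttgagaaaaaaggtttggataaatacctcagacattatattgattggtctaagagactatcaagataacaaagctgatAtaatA
Gm2035 held the commonest base throughout. Gm8332 differed from it here at 1 base, which Gm8300, Gm2016 and Gm5662 shared. Across the whole coding sequence, Gm8300 and Gm8332 differed by C108T and C244A alone, with the base of Gm8300 first. Gm2016 and Gm5662 differed by T63A, G271A, C276A and A370G, with the base of Gm2016 first.

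**Figure D1:**
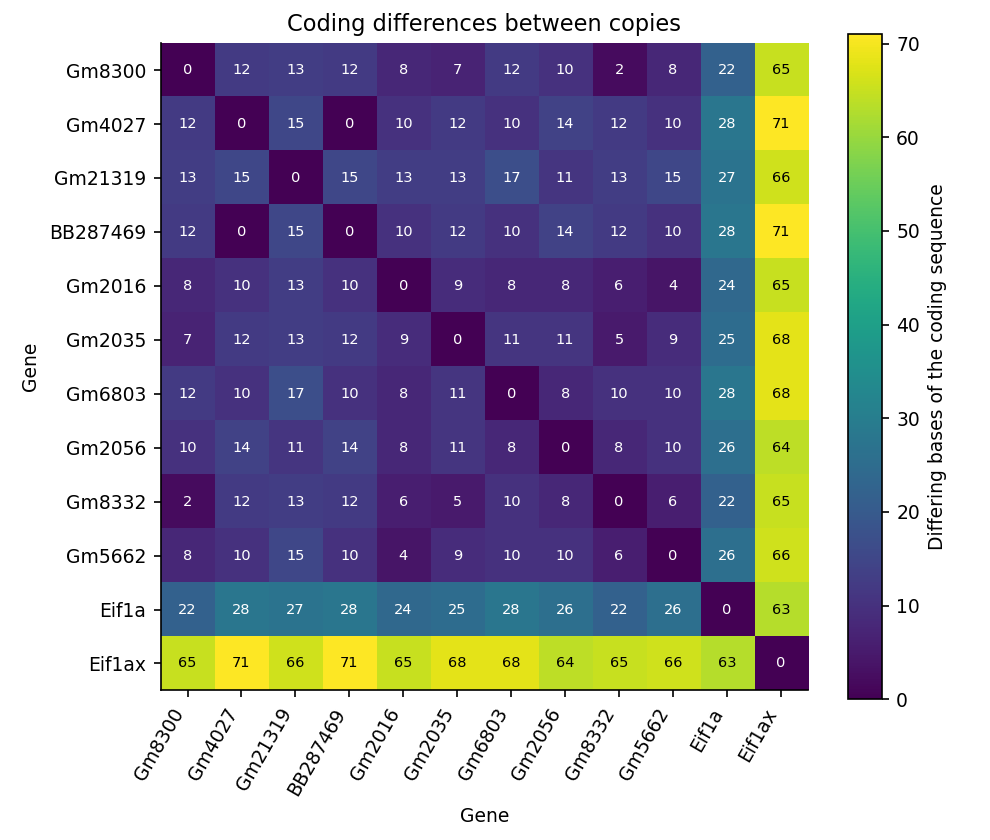
Number of differing bases between the coding sequences of each pair of genes, for the 10 members in chromosome order and for Eif1a and Eif1ax, from GENCODE M21 models. Members differed from each other by at most 17 bases, from Eif1a by 22 to 28 and from Eif1ax by 64 to 71.

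How far a level can be given to 1 copy depends on the sequence it has to itself. Of the 50-base windows of each model, 86.4% in Gm21319 and 73.4% in Gm8300 were in no other gene's GENCODE transcript. This share was 23.6% in Gm2035, 22.1% in Gm5662, 18.7% in Gm2016, 12.95% in Gm2056, 7.25% in Gm6803, 5.61% in Gm4027 and 3.39% in BB287469. Every window of Gm8332 was also in another member. How long the reads were and how those that match several copies were handled is not stated in the sources. The split between near-identical copies is therefore uncertain. Only Gm21319 and Gm8300 had most of their model absent from other GENCODE transcripts. Models outside this release, such as those of some other listed copies, were not searched, so these shares are upper limits.

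In the fusion line, 9 of the 10 members were between 25.3 and 219 TPM in GFP-positive cells and between 0.186 and 2.37 TPM in GFP-negative cells. Gm8332 was the exception, with 2.84 TPM in GFP-positive cells and 1.87 TPM in GFP-negative cells. Levels in the GFP-only line were 3.75 to 233 TPM in GFP-positive cells and from 0 as listed up to 2.44 TPM in GFP-negative cells. The levels of the 10 members in both GFP-positive libraries lay above every level in the GFP-negative libraries.

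Among the members with 2 exons, Gm8300 (chr12:87514316-87518266, plus strand) was at 113 TPM in GFP-positive and 0.991 TPM in GFP-negative cells of the fusion line. It was at 56.3 TPM in GFP-positive cells and listed at 0 in GFP-negative cells of the GFP-only line. Gm4027 (chr12:87618869-87622955, plus strand) was at 72.7 TPM in GFP-positive and 0.701 TPM in GFP-negative cells of the fusion line, and at 33.6 TPM in GFP-positive cells and listed at 0 in GFP-negative cells of the GFP-only line. Its coding twin BB287469 was lower than Gm4027 in the GFP-positive cells of the fusion line and about level with it in those of the GFP-only line. BB287469 (chr12:87816577-87820676, plus strand) was at 35.2 TPM in GFP-positive and 0.737 TPM in GFP-negative cells of the fusion line, and at 34.5 TPM in GFP-positive cells and listed at 0 in GFP-negative cells of the GFP-only line. Gm2016 (chr12:87874072-87877859, plus strand) was at 102 TPM in GFP-positive and 1.60 TPM in GFP-negative cells of the fusion line, and at 104 TPM in GFP-positive cells and listed at 0 in GFP-negative cells of the GFP-only line. Gm5662 (chr12:88270640-88274500, minus strand) was at 83.9 TPM in GFP-positive and 1.08 TPM in GFP-negative cells of the fusion line, and at 91.8 TPM in GFP-positive cells and listed at 0 in GFP-negative cells of the GFP-only line. BB287469, Gm2016 and Gm5662 had like levels in both GFP-positive libraries. Gm21319 (chr12:87772425-87775755, minus strand) was the lowest of the 6, with 25.3 TPM in GFP-positive and 0.186 TPM in GFP-negative cells of the fusion line. Its level in the GFP-only line was 3.75 TPM in GFP-positive cells, and it was listed at 0 in GFP-negative cells.

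Among the members with a coding-only model, Gm2035 (chr12:87919423-87919857, minus strand) was at 219 TPM in GFP-positive and 2.37 TPM in GFP-negative cells of the fusion line, and at 109.8 TPM in GFP-positive and 1.81 TPM in GFP-negative cells of the GFP-only line. Gm6803 (chr12:88018337-88018771, minus strand) was at 157 TPM in GFP-positive and 0.702 TPM in GFP-negative cells of the fusion line, and at 73.8 TPM in GFP-positive and 0.302 TPM in GFP-negative cells of the GFP-only line. Gm2056 (chr12:88027004-88027438, plus strand), which lies near Gm6803 on the opposite strand, was at 130.3 TPM in GFP-positive and 0.745 TPM in GFP-negative cells of the fusion line, and at 60.2 TPM in GFP-positive and 0.122 TPM in GFP-negative cells of the GFP-only line. All 3 were high in both GFP-positive libraries and higher in that of the fusion line. Gm8332 (chr12:88249666-88250100, minus strand) had another pattern, with 2.84 TPM in GFP-positive and 1.87 TPM in GFP-negative cells of the fusion line, and 233 TPM in GFP-positive and 2.44 TPM in GFP-negative cells of the GFP-only line. It was the highest member in the GFP-positive cells of the GFP-only line and the lowest in those of the fusion line.

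**Figure D2:**
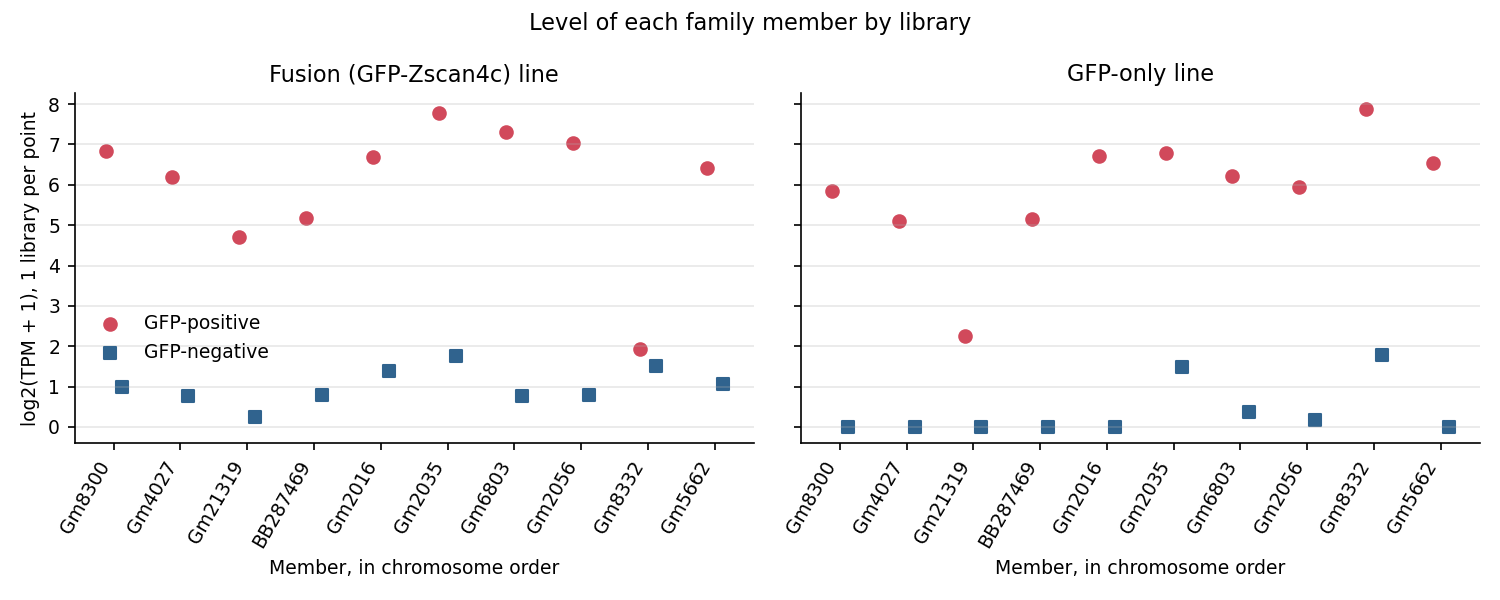
Level of each member as log2(TPM + 1) in GFP-positive (circles) and GFP-negative (squares) cells, 1 library per point, in the fusion line (left) and the GFP-only line (right), with members in chromosome order. Circles lie above squares for every member in both lines, and the closest pair is Gm8332 in the fusion line, at 2.84 TPM in GFP-positive and 1.87 TPM in GFP-negative cells.

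As a linear ratio of GFP-positive over GFP-negative cells in the fusion line, Gm8332 was at 1.52 and the other members lay between 47.8 in BB287469 and 223 in Gm6803. For the GFP-only line a ratio could be given for 4 members. It was 60.5 in Gm2035, 95.5 in Gm8332, 244 in Gm6803 and 494 in Gm2056, and each rests on a GFP-negative level of 2.44 TPM or less. The 6 members listed at 0 in the GFP-negative cells of the GFP-only line were the 6 with 2-exon models, and the 4 above 0 were the 4 with coding-only models. Of listed transcripts at 0.5 to 3 TPM in the GFP-negative cells of the fusion line, 60.2% of those of 1700 to 1900 bases were listed at 0 in the GFP-only line's GFP-negative cells, and 45.4% of those of 350 to 550 bases. The part of transcript length in the split between members was not tested.

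A gene was counted as higher when its log2(TPM + 1) ratio was 1 or more, among genes at 5 TPM or more in either library, with a gene listed at 0 entered as 0 TPM. In the fusion line, 9 members could be counted and 9 were higher in GFP-positive cells, and 8.23% of the 10981 genes counted were. Likewise 9 members could be counted in the GFP-only line and 9 were higher, and 33.2% of the 11062 genes counted were. The members passed the 5 TPM minimum only through their GFP-positive level and were chosen on this comparison, so nothing is read from these counts. Gm8332 in the fusion line and Gm21319 in the GFP-only line did not reach the minimum. The median log2 ratio of the members counted was 5.44 in the fusion line and 5.84 in the GFP-only line, beside 0.14 and 0.19 over all genes counted. In the GFP-only line this median takes in members listed at 0, so its size depends on the 1 TPM added.

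The 10 members summed to 942 TPM in GFP-positive and 11.0 TPM in GFP-negative cells of the fusion line. Their sum was 800.2 TPM in GFP-positive and 4.68 TPM in GFP-negative cells of the GFP-only line. The GFP-positive sum was 85.7 times the GFP-negative one in the fusion line, a log2(TPM + 1) ratio of 6.30. For the GFP-only line the log2(TPM + 1) ratio was 7.14, which enters the 6 members listed at 0 as 0 TPM, so no linear fold of the whole sum is given. The 4 members above 0 there summed to 477 TPM in GFP-positive and 4.68 TPM in GFP-negative cells, a linear ratio of 102. Against the GFP-negative library of the fusion line, the ratio of the GFP-only line's GFP-positive cells was 6.06 on the log2 scale. Taken as 1 gene, the family would have had 79 of 24190 symbols at or above it in GFP-positive cells of the fusion line and 99 in those of the GFP-only line. In GFP-negative cells, 7297 symbols were at or above the sum in the fusion line and 7923 in the GFP-only line.

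Between the GFP-positive libraries of both lines, which also entered the comparison that chose the members, the family sum was 942 TPM in the fusion line and 800.2 TPM in the GFP-only line, a linear ratio of 1.18. Single members spread more widely. Of the 10 members, 4 were higher in the fusion line by the log2 ratio of 1, namely Gm4027, Gm21319, Gm6803 and Gm2056, and 5.71% of the 11126 genes counted were. Gm8332 alone was lower, as were 4.05% of all genes counted. Gm8300 and Gm2035 were just short of that ratio at 0.99 each. The median over the 10 members was 0.99, beside 0.05 over all genes counted. This was not particular to the family. Of the 10 markers of 2C-like cells, 7 were higher in the fusion line and 0 lower, with a median of 1.09. The median was 1.29 over the 5 listed Zscan4 genes, with 4 higher, and 1.59 over the 3 Tcstv genes, with 3 higher. The marker list holds some genes of both clusters. With 1 library per population, no error can be set beside these ratios.

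The linear ratios of the fusion line over the GFP-only line lay close to a few values. Gm8300, Gm4027, Gm2035, Gm6803 and Gm2056 had ratios of 2.01, 2.17, 2.00, 2.13 and 2.16. BB287469, Gm2016 and Gm5662 had ratios of 1.02, 0.985 and 0.914. Gm21319, the member with the most sequence to itself among GENCODE transcripts, had a ratio of 6.73. That ratio rests on 3.75 TPM in the GFP-only line. Gm8332 had a ratio of 0.0122, which is a log2(TPM + 1) ratio of -5.93. The first 5 genes summed to 692 TPM in the fusion line and 334 TPM in the GFP-only line. The next 3 summed to 221 TPM in the fusion line and 230.0 TPM in the GFP-only line. These groups were formed after the values were seen. In chromosome order BB287469 and Gm2016 were neighbouring members. They lay between Gm21319, with a ratio of 6.73, and Gm2035, with a ratio of 2.00. Gm5662 lay at the far end beyond Gm8332. Close relatives had like ratios in 1 case and unlike ones in others. Gm2016 and Gm5662, which differ at 4 coding bases, had ratios of 0.985 and 0.914, while Gm4027 and BB287469, which differ at none, had ratios of 2.17 and 1.02. Gm8300 and Gm8332, which differ at 2 coding bases, had ratios of 2.01 and 0.0122. Gm8300 and Gm8332 together summed to 116 TPM in GFP-positive cells of the fusion line and 289 TPM in those of the GFP-only line, and how reads were divided between them was not tested. Gm4027 and BB287469, with the same coding sequence, together summed to 108 TPM in GFP-positive cells of the fusion line and 68.0 TPM in those of the GFP-only line. Without Gm8332, the other members summed to 939 TPM in GFP-positive cells of the fusion line and 567 TPM in those of the GFP-only line, a linear ratio of 1.65.

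**Figure D3:**
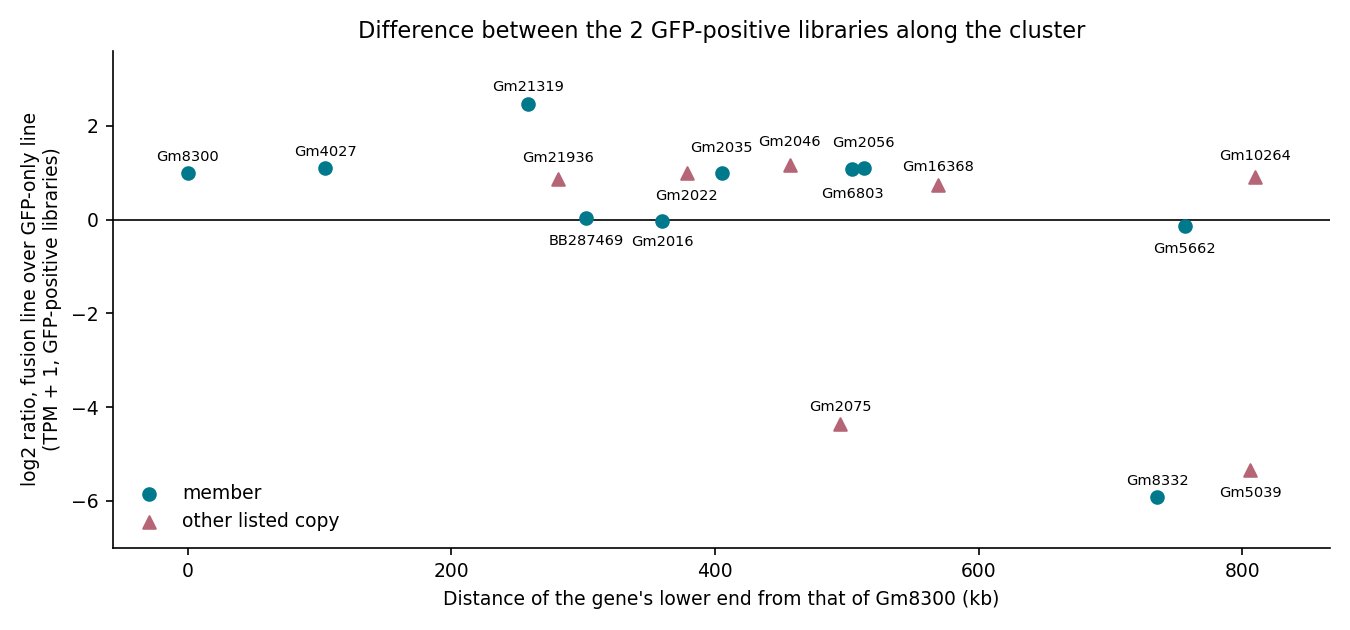
Log2 ratio of TPM + 1, fusion line over GFP-only line in GFP-positive cells, against the distance of each gene from Gm8300 in kb, for the 10 members (circles) and 7 other listed copies (triangles). Gm8332, Gm2075 and Gm5039 lie between -5.93 and -4.35, Gm21319 is at 2.47, and the remaining copies lie between -0.13 and 1.17.

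The shares of the sum moved accordingly. In GFP-positive cells of the fusion line, Gm2035 held 23.3% of the sum, Gm6803 16.7%, Gm2056 13.8% and Gm8332 0.302%. In GFP-positive cells of the GFP-only line, Gm8332 held 29.1%, Gm2035 13.7%, Gm2016 12.96% and Gm5662 11.5%. The leading 3 members held 53.8% in the fusion line and 55.8% in the GFP-only line. Members with 2-exon models held 45.9% of the sum in GFP-positive and 48.2% in GFP-negative cells of the fusion line. They held 40.4% in GFP-positive cells of the GFP-only line and were each listed at 0 in its GFP-negative cells. There, the sum rested on Gm8332 with 52.1% and Gm2035 with 38.8%.

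**Figure D4:**
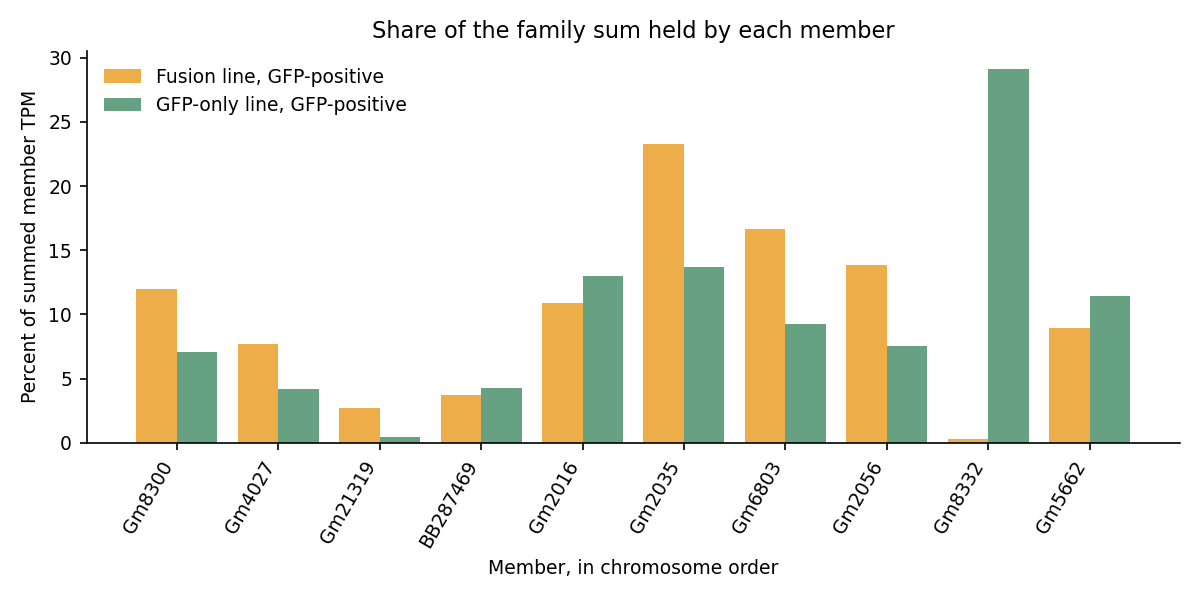
Percent of the summed TPM of the 10 members held by each member, in GFP-positive cells of the fusion line (left bar of each pair) and of the GFP-only line (right bar), 1 library each. Gm8332 held 0.302% in the fusion line and 29.1% in the GFP-only line, and Gm2035 held 23.3% and 13.7% in the same order.

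The 10 members were not all of the listed copies. By a rule set after the data were seen, another 7 listed genes of the cluster were taken as copies. The rule asked for a transcript of that name, or inside its RefSeq span, that held at least 100 member windows of 50 bases. These windows were added up over the 10 members, so the same window can count more than once. The 7 copies were Gm21936, Gm2022, Gm2046, Gm2075 and Gm16368, which lie between members, and Gm5039 and Gm10264, which lie beyond Gm5662. Together with the members the 17 copies summed to 1457 TPM in GFP-positive and 25.0 TPM in GFP-negative cells of the fusion line. The 17 summed to 1216 TPM in GFP-positive and 16.1 TPM in GFP-negative cells of the GFP-only line. The members held 64.6% of this sum in GFP-positive cells of the fusion line and 65.8% in those of the GFP-only line. In GFP-negative cells they held 43.9% in the fusion line and 29.1% in the GFP-only line, where 6 members enter as 0. The other copies Gm21936, Gm2046 and Gm10264 also enter as 0 there, and Gm16368 alone was at 7.06 of the 16.1 TPM.

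Gm2022 followed Gm2035 closely, with 219 TPM in GFP-positive and 2.83 TPM in GFP-negative cells of the fusion line, and 109.8 TPM in GFP-positive and 1.42 TPM in GFP-negative cells of the GFP-only line. The coding sequence of Gm2022 in GENCODE M21 differed from that of Gm2035 by 8 bases. The listed transcripts of Gm2022, Gm21936, Gm2046, Gm16368 and Gm10264 have IDs that this release does not hold, so the models behind their values may differ from the one compared. Gm2046, Gm21936 and Gm10264 also had ratios near 2 between the GFP-positive libraries, at 2.26, 1.85 and 2.29, and Gm16368 had 1.67. Gm16368 was at 90.8 TPM in GFP-positive and 3.90 TPM in GFP-negative cells of the fusion line. In the GFP-only line it was at 54.5 TPM in GFP-positive and 7.06 TPM in GFP-negative cells, a linear ratio of 7.72. Its GFP-negative level was the highest of the 17 copies in both lines. Gm2046 was at 151 TPM in GFP-positive and 1.54 TPM in GFP-negative cells of the fusion line, and at 66.8 TPM in GFP-positive cells and listed at 0 in GFP-negative cells of the GFP-only line.

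Gm2075 and Gm5039 had the pattern of Gm8332. Gm2075 was at 1.97 TPM in GFP-positive and 2.23 TPM in GFP-negative cells of the fusion line, and at 59.6 TPM in GFP-positive and 1.31 TPM in GFP-negative cells of the GFP-only line. Gm5039 was at 1.43 TPM in GFP-positive and 3.43 TPM in GFP-negative cells of the fusion line, and at 97.6 TPM in GFP-positive and 1.60 TPM in GFP-negative cells of the GFP-only line. Gm8332, Gm2075 and Gm5039 summed to 6.24 TPM in GFP-positive cells of the fusion line and to 390.0 TPM in those of the GFP-only line. In GFP-negative cells they summed to 7.53 TPM in the fusion line and 5.34 TPM in the GFP-only line. All 3 had models of 435 bases and are pseudogenes in RefSeq, as Gm2035 and Gm2056 are. Their coding sequences differed from each other by 11 or 12 bases. Of their windows, 0% in Gm8332, 25.4% in Gm2075 and 49.2% in Gm5039 were in no other gene's transcript.

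Other genes between the outermost members were low. Gm16381 and Gm2001 had equal values, 3.13 TPM in GFP-positive and 0.0338 TPM in GFP-negative cells of the fusion line, and 0.376 TPM in GFP-positive cells and listed at 0 in GFP-negative cells of the GFP-only line. Gm8587, a processed pseudogene, was at 3.19 TPM in GFP-positive and 3.47 TPM in GFP-negative cells of the fusion line, and at 4.03 TPM in GFP-positive and 3.80 TPM in GFP-negative cells of the GFP-only line. Gm5442 was at 0.476 TPM in GFP-positive cells of the fusion line and listed at 0 in the other libraries. Gm8587, although inside the cluster, had like levels in every library.

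RefSeq promoters, 250 bases before to 50 after the annotated start (GRCm38.p6), were found for 4 members, Gm4027, Gm21319, BB287469 and Gm6803. Gm4027 and Gm21319 are shown as a pair of members with unlike levels whose promoters share sequence, at chr12:87618659-87618958 on the plus strand and chr12:87775706-87776005 on the minus strand. Capitals mark runs of 20 and 21 bases that both share with BB287469 and with Gm2046.
Gm4027: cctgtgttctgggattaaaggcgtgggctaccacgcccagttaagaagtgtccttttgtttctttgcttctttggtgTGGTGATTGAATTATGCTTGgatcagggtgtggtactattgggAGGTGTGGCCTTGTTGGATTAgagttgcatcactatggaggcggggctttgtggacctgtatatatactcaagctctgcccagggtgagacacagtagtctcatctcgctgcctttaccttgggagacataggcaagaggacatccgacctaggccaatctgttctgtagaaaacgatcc
Gm21319: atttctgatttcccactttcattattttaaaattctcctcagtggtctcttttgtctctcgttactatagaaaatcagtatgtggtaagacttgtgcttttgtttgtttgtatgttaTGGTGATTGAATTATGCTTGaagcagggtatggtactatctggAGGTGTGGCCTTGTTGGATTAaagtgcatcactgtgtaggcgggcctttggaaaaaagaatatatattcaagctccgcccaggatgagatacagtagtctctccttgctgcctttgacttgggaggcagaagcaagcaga
These runs were in the promoters of those 4 genes and in no other of 32851. The run of 21 bases began 130 bases before the annotated start of Gm4027 and 90 before that of Gm21319. The promoters of Gm4027 and BB287469 were 99.6% identical over 259 aligned columns, while those of Gm4027 and Gm21319 were 81.5% identical over 216. Gm6803 had neither run.

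Motifs were searched on both strands. The TATA-box form TATAAA was in the Gm6803 promoter, 163 bases before the annotated start, and in 13.6% of all promoters. CCAAT was in those of Gm4027 and BB287469 and in 37.4% of all. In Gm4027 its match on the gene's strand lay after the annotated start, and BB287469 had it on the opposite strand alone. The palindromic motif bound by Dux, an activator of the 2-cell programme, was in none of the 4 and in 0.0335% of all. CACACACA was in none of the 4 and in 4.09% of all. A shorter part of the palindrome, TGATTNAAT, lies within the run of 20 bases, so it was in Gm4027, Gm21319 and BB287469. It was in 0.718% of all promoters, and it was searched after the sequences had been seen. These matches describe letters in the window and do not show binding.

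The genes of eIF1A itself were not 2-fold apart between GFP-positive and GFP-negative cells in either line. Eif1a was at 61.3 TPM in GFP-positive and 47.7 TPM in GFP-negative cells of the fusion line, and at 49.6 TPM in GFP-positive and 51.0 TPM in GFP-negative cells of the GFP-only line. Eif1ax, the copy on the X chromosome, was at 18.4 TPM in GFP-positive and 15.9 TPM in GFP-negative cells of the fusion line, and at 17.3 TPM in GFP-positive and 31.1 TPM in GFP-negative cells of the GFP-only line. The family sum was 11.8 times the sum of Eif1a and Eif1ax in GFP-positive and 0.173 times in GFP-negative cells of the fusion line. For the GFP-only line it was 11.96 times in GFP-positive and 0.0569 times in GFP-negative cells, where 6 members enter as 0.

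Of the other genes named after eIF1A or eIF1, Eif1ad was between 23.2 and 27.6 TPM in all libraries. Eif1, the partner of eIF1A in start codon choice, was between 163 and 216 TPM. Eif1b, a relative of Eif1, was between 17.6 and 21.3 TPM in 3 libraries and listed at 0 in GFP-negative cells of the GFP-only line. Of 48 translation initiation factor genes, 47 were listed. In the fusion line, 46 of them could be counted, 0 were higher and 0 lower in GFP-positive cells by the log2 ratio of 1, beside 8.23% and 3.14% of all genes counted. Their median log2 ratio was 0.19, beside 0.14 over all genes. For the GFP-only line, 45 could be counted, with 7 higher and 1 lower, beside 33.2% and 7.48% of all genes. Those 7 were Eif1b, Eif2s3y, Eif2a, Mcts1, Denr, Eif3j1 and Eif5b, and the lower one was Eif3c, a subunit of eIF3. Eif1b and Mcts1 were listed at 0 in GFP-negative cells of that line. The median there was 0.02, beside 0.19 over all genes. No initiation factor was 2-fold apart in the same direction in both lines.

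The Zscan4 cluster, zinc finger genes of the 2-cell stage on chromosome 7, and the Tcstv cluster, 2-cell genes on chromosome 13, are set beside the family for comparison. The 5 listed Zscan4 genes summed to 1728 TPM in GFP-positive and 9.73 TPM in GFP-negative cells of the fusion line, and to 973 TPM in GFP-positive and 10.9 TPM in GFP-negative cells of the GFP-only line. The 3 Tcstv genes summed to 853 TPM in GFP-positive and 5.31 TPM in GFP-negative cells of the fusion line, and to 282 TPM in GFP-positive and 4.17 TPM in GFP-negative cells of the GFP-only line. Between GFP-positive libraries, the fusion line over the GFP-only line was 1.78 for the Zscan4 sum, 3.03 for the Tcstv sum and 1.18 for the family sum. Ratios of single Zscan4 genes ranged from 0.735 to 5.17. Zscan4c itself was lower in the fusion line, at 366 TPM against 497 TPM in the GFP-only line. The fusion construct also holds Zscan4c sequence, and its part in the Zscan4 values was not tested.

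**Figure D5:**
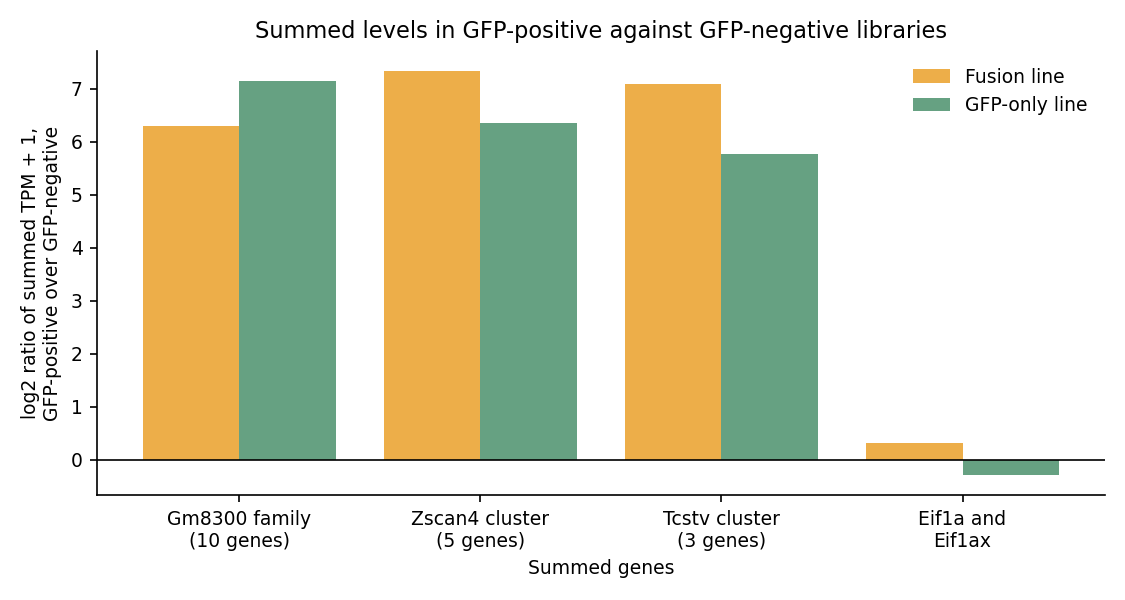
Log2 ratio of summed TPM + 1 in GFP-positive over GFP-negative cells, for the 10 members, 5 Zscan4 genes, 3 Tcstv genes and Eif1a with Eif1ax, in the fusion line (left bar) and the GFP-only line (right bar). The family had 6.30 and 7.14, and Eif1a with Eif1ax had 0.32 and -0.29, in the same order.

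The genes whose levels over the 4 libraries were most like the mean of the members were found among 11788 symbols by Euclidean distance between centred log2(TPM + 1) profiles. With 4 libraries, such a distance ranks genes by little more than the size of the GFP difference in each line. The nearest 8 were Zfp809, Usp17lc, Gm6489, Gm21936, Gm4312, Gm2022, Gm5698 and Gm13119, at distances of 0.474 to 0.853, of which Gm21936 and Gm2022 are copies from the same cluster. Zfp809, a zinc finger gene on chromosome 9 whose product silences retroviruses, was nearest, with 39.4 TPM in GFP-positive cells and listed at 0 in GFP-negative cells of the fusion line, and with 30.1 TPM in GFP-positive cells and listed at 0 in GFP-negative cells of the GFP-only line. The members themselves lay 0.490 to 1.17 from their mean, apart from Gm21319 at 2.49 and Gm8332 at 4.78.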

How the data were processed

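Messenger RNA was sequenced from 4 sorted ESC populations, 1 library each. The deposited values are TPM per transcript, calculated by the authors. The submitters' processing notes list StringTie 1.3.5, HISAT2 2.1.0 and CASAVA, and the builds GRCm38 and mm10. The options, the read length and the annotation release are not given in sources used here. Because TPM hold no counts, read depth and counting error are unknown. All 4 tables list the same 58853 transcripts.

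TPM were summed per gene symbol. Ratios use log2(TPM + 1), so that changes of weakly expressed genes come out too small. Genes were counted at a ratio of 2-fold or more if 1 of the libraries compared had at least 5 TPM. This counting was checked on simulated data. Models and coding sequences came from GENCODE M21, promoters from RefSeq (GRCm38.p6), with Python 3.11.15, pandas 2.3.3 and Biopython 1.88. Pairwise differences were counted over coding sequences of equal length. Named genes were the members, the genes named after eIF1A or eIF1, the 8 nearest profiles and genes between the outermost members. Initiation factors that were 2-fold apart in the same direction in both lines were also to be named. Initiation factors 2-fold apart in 1 line are named too, as a choice made after seeing the values. Members, lists and motifs were chosen with earlier results of these data known. Alternatives were other pseudocounts, scalings, filters and family memberships, of which those on membership and on the GFP-negative library were chosen after seeing the data.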

Additional observations from a re-analysis of the deposited data

Results flagged for a closer look

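In 5 genes the GFP-positive over GFP-negative ratio ran in opposite directions in the lines. They were the copies Gm2075 and Gm5039 and the initiation factor genes Eif1a, Eif1ax and Eif1. None of these differences was tested, since each direction rests on 1 library per population. On the log2(TPM + 1) scale, Gm2075 was at -0.12 in the fusion line and 4.71 in the GFP-only line, and Gm5039 was at -0.87 and 5.25 in the same order. The canonical genes had small ratios: Eif1a was at 0.36 and -0.04, Eif1ax at 0.20 and -0.81, and Eif1 at 0.28 and -0.10, again with the fusion line first. Opposite signs are not particular to these genes, since other initiation factors had them too, such as Eif3m at 0.30 and -0.36. The share of all genes with opposite signs was not counted. For Gm8332 the direction was the same in both lines, with 0.42 in the fusion line and 6.09 in the GFP-only line.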

How the results depend on the processing

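Under the alternatives run, 1 ratio changed sign, that of BB287469 between the GFP-positive libraries, whose log2 ratio was 0.03 as deposited and just below 0 after median-ratio scaling. A value was taken as moved when it changed by more than 1.5 times on the linear scale, and 59 of 68 family results and 143 of 190 single-member ratios did not. The log2 ratio of the family sum in the GFP-only line, 7.14, became 6.38 with a pseudocount of 5 TPM and 5.59 with quantile normalization. Among the alternatives chosen after seeing the data, it became 6.06 against the GFP-negative library of the fusion line and 6.16 with the 7 other copies added. Members counted as higher in the GFP-only line numbered 9, against 4 when only genes above 0 in both libraries were counted, which removes those listed at 0, and 15 with the 7 copies added. The largest share in GFP-positive cells was 23.3% in the fusion line, against 15.1% with the 7 copies added. In the GFP-only line it was 29.1%, against 19.2% with these copies and 19.3% without Gm8332. Both follow from the changed set of genes. Over all genes in the fusion line, the median log2 ratio was -0.01 after median-ratio scaling and 0.14 as deposited. Depth is unknown, and levels near 0 rest on an unknown number of reads. No paired analysis was possible because no result here comes from a test. The GFP-positive and GFP-negative libraries of each line are compared within that line.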
